A study of Mus musculus with 2 samples.

Results

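Matrix metalloproteases (MMPs), proteases of the ADAMTS family and tissue inhibitors of metalloproteases (TIMPs) were followed across cerebellar tumors grown from mouse breast cancer organoids. All genes of the probe panel whose symbol begins with Mmp, Timp or Adamts followed by a digit were taken, which gave 45 of 19465 genes: 22 *Mmp*, 19 *Adamts* and 4 *Timp* genes. *Mmp1a* is not among the probes. Of the 45 genes, 44 had enough UMIs (unique molecular identifiers, each standing for 1 captured probe product) to be tested, and *Mmp1b* had 2 UMIs in all regions of both sections.

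MMPs are zinc proteases that cut collagens, elastin, laminins, growth factors and other proteases. Most are secreted as inactive precursors, while the membrane-type MMPs are anchored on the cell surface. ADAMTS proteases cut the large proteoglycans of brain matrix, such as brevican and versican, or trim procollagens. TIMPs bind the active site of these proteases, and TIMP2 also takes part in the activation of MMP2 by MMP14 on the cell surface, so that protease and inhibitor are best read together. In brain tumors these genes are expressed by tumor cells, macrophages, fibroblasts and vessels as well as by glia and neurons.

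The data are 2 sections, each 5 µm thick, of formalin-fixed mouse cerebellum profiled with the Visium CytAssist assay, 1 from each of 2 biological replicates. Both carry the genotype label HP, for organoids made from mammary tumors with activating HER2 and PIK3CA mutations, and both are labelled "+cre" and untreated. The organoid cells carried a luciferase reporter and were injected into the cerebellum of adult B6 mice with an intact immune system. Section 1 bears the organoid label HP-F1 and section 2 the label HP-B6. There is 1 condition, so the regions within each section were compared and the section was the replicate (n = 2).

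Tumor spots were those with little neuron, oligodendrocyte and astrocyte RNA, neural spots were those with ample RNA of these cells, and the Arg1-high edge held the spots with the highest level of *Arg1*, the arginase of a macrophage state, within 5 spots of both tumor and neural tissue. Edge spots were taken out of the other regions. Of the edge spots, 109 and 120 in sections 1 and 2 were low in neural RNA like tumor, and 60 and 59 scored as neural. Tumor and neural regions thus lack their spots of highest *Arg1* near the border. Differences from the edge in genes that go with *Arg1* are therefore in part set by the rule. Tumor and neural spots were split by neural RNA. Differences between regions in genes that go with neural RNA are likewise in part set by the rule. No MMP, ADAMTS or TIMP gene was used to set the regions. Sections 1 and 2 had 610 and 604 tumor spots, 305 and 351 edge spots and 2292 and 2821 neural spots. Median depth was 57053.5 and 42378.5 UMIs per tumor spot, 21650 and 22073 per edge spot and 7538.5 and 9814 per neural spot. A spot holds several cells, so fewer cells of a type and less RNA per cell cannot be told apart.

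**Figure D1:**
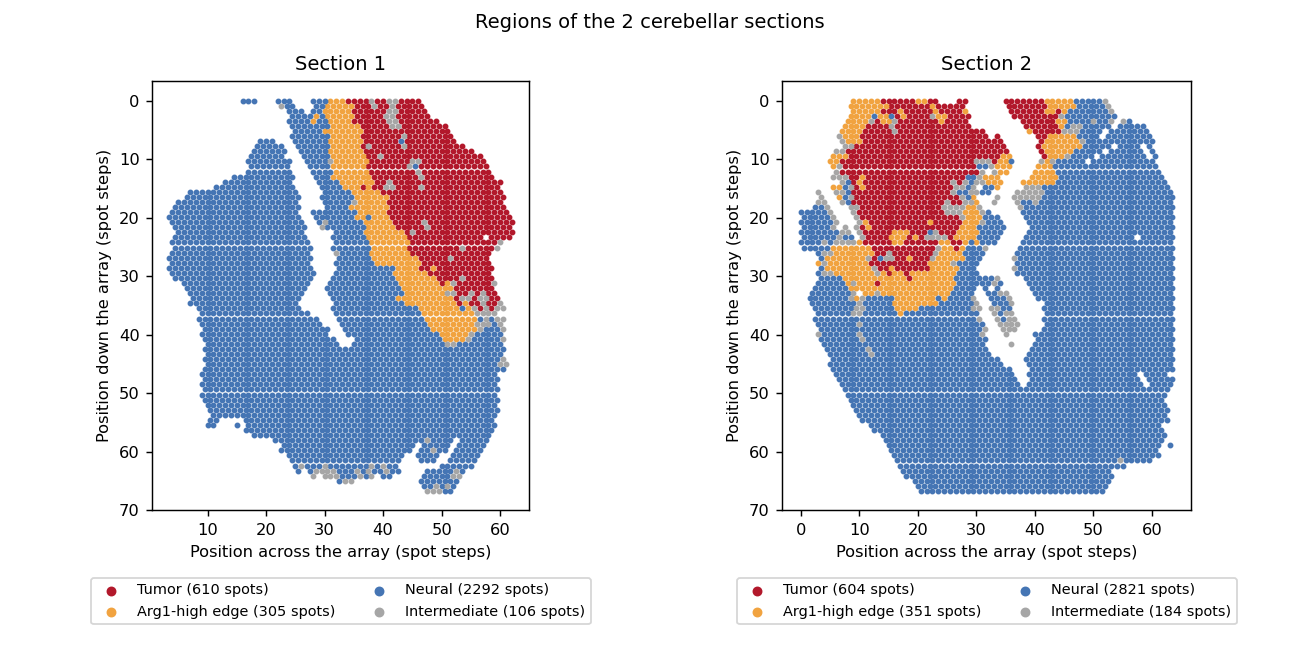
Position of each spot on the array, in spot steps, for both sections, with color for the region it was assigned to. Tumor spots form a mass that reaches the upper edge of the array in both sections, and the Arg1-high edge (305 and 351 spots) lies between tumor and neural spots.

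The tumors of both sections differed in makeup. In section 1 the tumor held 62305 CPM (counts per 1000000 UMIs, scaled by the TMM method) of 9 fibroblast markers and 54.3 CPM of 10 epithelial markers, while in section 2 it held 733 CPM of the fibroblast markers and 14087 CPM of the epithelial markers. The tumor of section 1 thus lacked a high level of the epithelial markers of a mammary tumor, and no list had a gene without UMIs in either tumor. Macrophage markers summed to 13299 and 15807 CPM in the edges, to 7577 and 1858 in the tumors, and to 832 and 1758 in neural tissue (section 1 first). Most of each sum was 1 gene, *Spp1*. It made 9071 and 12057 CPM in the edges, 5299 and 1218 in the tumors and 458 and 1149 in neural tissue. Because the tumors stood so far apart, the levels of family members are given for each section. The part of fibroblast, epithelial and macrophage content in the results was not tested.

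Between tumor and neural tissue, 18 of 44 tested genes were called at a Benjamini-Hochberg adjusted p below 0.05 in edgeR's quasi-likelihood test, 11 higher and 7 lower in the tumor. This is 40.9% of the family, beside 36.2% of all 19143 genes tested (17.9% higher and 18.3% lower). The median log2 fold change was 0.86 for the family and -0.13 for all genes. Against neural tissue the Arg1-high edge had 13 genes higher and 5 lower, which is again 40.9% of the family and compares with 23.5% of all genes (11.8% higher and 11.7% lower), with medians of 0.68 and -0.08. Between edge and tumor 3 genes were higher and none lower (6.82%, beside 2.5% of all genes, of which 2.46% higher and 0.0418% lower), with medians of -0.04 and -0.02. At an unadjusted p below 0.05, 2797 of all genes differed between edge and tumor, and DESeq2 called 5 of the family there. The share of all genes that DESeq2 called is not given here. The 3 comparisons share regions, so these counts are not independent of each other. Without the section as a block the tumor calls of *Adamts1*, *Adamts5*, *Adamts7*, *Adamts17*, *Mmp9* and *Mmp13* were lost, as were the edge calls of *Adamts1*, *Adamts5*, *Adamts12*, *Adamts13*, *Adamts17*, *Mmp9*, *Mmp13* and *Timp1*, and that of *Mmp8* between edge and tumor. Without the intermediate region in the fit none of the 3 calls between edge and tumor remained, and the edge calls of *Adamts12*, *Adamts13*, *Adamts17*, *Mmp9*, *Mmp13*, *Timp1* and *Timp4* were lost.

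**Figure D2:**
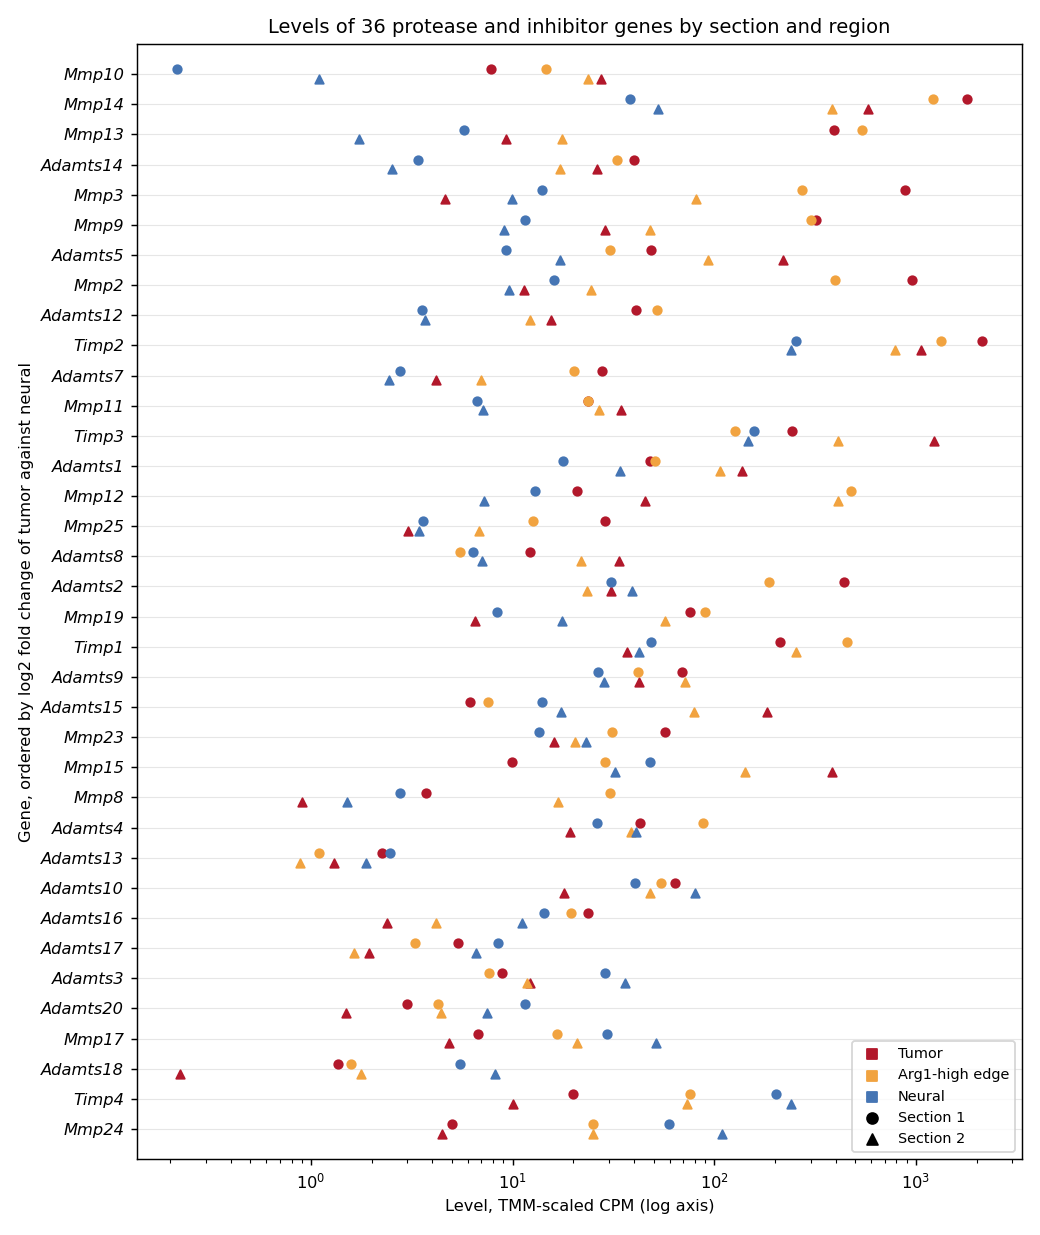
Level of 36 MMP, ADAMTS and TIMP genes in CPM scaled by TMM, on a log axis, in tumor, Arg1-high edge and neural regions; circles are section 1 and triangles section 2, with 1 value per section and region. *Mmp12* and *Mmp8* stand apart in the edge of both sections, *Timp4* and *Mmp24* are highest in neural tissue, and *Mmp2*, *Mmp3* and *Mmp15* differ widely between the tumors.

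Of the genes that come first in the results, *Mmp13*, *Mmp12*, *Mmp3* and *Mmp10* lie in 1 cluster of 9 *Mmp* genes of the panel on chromosome 9 (chr9:7272514-7699585 in GRCm38.p6, 427.1 kb), in the order *Mmp13*, *Mmp12*, *Mmp1b*, *Mmp3*, *Mmp10*, *Mmp8*, *Mmp27*, *Mmp20* and *Mmp7*. The stretch upstream of a RefSeq start of each of these 4 genes is shown because it holds the letters TGANTCA. These letters are the motif of AP-1, the Fos and Jun transcription factors known to act on MMP genes. The motif, in capitals, was searched on both strands, and these letters read the same on either strand apart from the middle base. The sequences are from RefSeq promoters of GRCm38.p6, all on the plus strand, at chr9:7272449-7272513 for *Mmp13*, chr9:7347300-7347366 for *Mmp12*, chr9:7445746-7445812 for *Mmp3* and chr9:7502249-7502315 for *Mmp10*.
Mmp13: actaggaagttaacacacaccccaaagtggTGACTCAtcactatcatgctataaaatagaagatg
Mmp12: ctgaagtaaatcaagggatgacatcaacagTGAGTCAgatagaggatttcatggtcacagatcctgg
Mmp3: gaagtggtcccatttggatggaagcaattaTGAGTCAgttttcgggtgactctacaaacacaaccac
Mmp10: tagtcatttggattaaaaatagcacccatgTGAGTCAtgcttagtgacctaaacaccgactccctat

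Counted from the start, the motif began at -35 in *Mmp13*, -44 in *Mmp12*, -46 in *Mmp3* and -63 in *Mmp10*. The start of *Mmp12* is one that RefSeq lists within the gene. The promoter at the first start of *Mmp12* (chr9:7344147-7344446) does not hold the motif, so *Mmp12* is counted below only through the start within the gene. Within 250 bases before to 50 after the start, the motif was found in 7 of the 31 family members with a promoter in the table (22.6%), all 7 in the chromosome 9 cluster, and in 8.21% of the 15061 panel genes with a promoter there. *Mmp1b*, *Mmp7* and *Mmp20* have the letters too. *Mmp1b* had 2 UMIs in all regions of both sections, while *Mmp7* and *Mmp20* were low, with 192 and 253. *Mmp8* and *Mmp27* of the same cluster do not have the letters in this window. Each of the genes shown was higher in the edge than in neural tissue in both sections, though *Mmp3* was not called. *Mmp8*, without the letters in this window, was higher there as well. *Mmp7* and *Mmp20*, with the letters, went the other way and were highest in neural tissue of both sections. Neither was called, and for *Mmp7* the edge of section 1 was barely below neural tissue. Their edge levels rest on 16 and 4 UMIs of *Mmp7* and 18 and 7 of *Mmp20* in sections 1 and 2. The highest region was the edge of both sections for *Mmp12* and *Mmp13* but differed between sections for *Mmp3* and *Mmp10*. A match of letters is a description and was not tested for binding.

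*Mmp12*, the metalloelastase of macrophages, had the largest fitted log2 fold change of the family between edge and tumor. Its level was 475 and 409 CPM in the edge of sections 1 and 2, 20.7 and 45.3 in the tumor and 12.9 and 7.19 in neural tissue. Both edges were above every tumor and neural value. Against neural tissue the log2 fold change was 5.43 (SE 0.70, edgeR adjusted p = 0.0070, n = 2 sections), and it was 5.15 and 5.73 within the sections. Against the tumor it was 3.83 (SE 0.65, edgeR adjusted p = 0.051), just above the threshold, with 4.48 and 3.16 within the sections, where *Mmp3* (4.00) and *Mmp8* (3.63) were above it in section 2. DESeq2 and 6 other alternatives called this difference. Of the 10 macrophage markers 6 were called higher in the edge than in neural tissue and none between edge and tumor. The edge was picked by *Arg1*, a gene of a macrophage state. A rise of such markers there, and of genes that go with *Arg1*, is thus in part set by the rule. The part of the macrophage markers in the level of *Mmp12* was not tested.

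*Mmp8*, the collagenase of neutrophils, was likewise highest in the edge of both sections. It was at 30.3 and 16.8 CPM in the edge, 3.71 and 0.90 in the tumor and 2.77 and 1.52 in neural tissue, without overlap between the edge and the other regions. The log2 fold change was 3.46 against neural tissue (SE 0.45, edgeR adjusted p = 0.0071) and 3.50 against the tumor (SE 0.46, edgeR adjusted p = 0.032). The 8 neutrophil markers summed to 101 and 126 CPM in the edge, 71.4 and 66.9 in the tumor and 30.5 and 50.1 in neural tissue. Of the edge sums *Csf3r* alone made 47.3 and 43.7 CPM. Among the 8 markers 3 were called higher in the edge than in neural tissue and none between edge and tumor. Their part in the level of *Mmp8* was not tested.

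*Mmp13*, a collagenase of fibrillar collagen, was highest in the edge of each section but at very different levels. The edge held 539.6 and 17.6 CPM, the tumor 394 and 9.23 and neural tissue 5.72 and 1.73, so that edge and tumor of section 2 were closer to neural tissue than to the same regions of section 1. Within sections the order of the 3 regions was shared. The log2 fold change against neural tissue was 4.66 in the edge (SE 0.99, edgeR adjusted p = 0.025) and 4.04 in the tumor (SE 0.98, edgeR adjusted p = 0.025). These calls, and those of *Mmp9*, were lost without the section as a block and without the intermediate region.

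*Mmp10* and *Mmp11*, stromelysins of which MMP10 can activate other MMPs, were higher in tumor and edge in both sections. *Mmp10* rose from 0.217 and 1.09 CPM in neural tissue (5 and 36 UMIs) to 7.85 and 27.5 in the tumor and to 14.7 and 23.7 in the edge, with log2 fold changes of 4.75 (SE 0.47, edgeR adjusted p = 0.0014) and 5.15 (SE 0.48, edgeR adjusted p = 0.0049). *Mmp11* was at 6.67 and 7.16 CPM in neural tissue, 23.6 and 26.9 in the edge, 23.5 and 34.3 in the tumor, with tumor and edge log2 fold changes of 2.05 and 1.86. For both genes the tumor and edge values of the sections lay above all neural values.

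*Mmp3*, the main stromelysin, did not keep its direction. The tumor of section 1 held 881 CPM, against 273 in the edge and 13.9 in neural tissue, whereas section 2 had 4.59 CPM in the tumor, 80.8 in the edge and 9.98 in neural tissue. The change from neural tissue to tumor was thus 5.93 in section 1 and -1.04 in section 2, and the fit gave no call (edgeR adjusted p = 0.19). In both sections *Mmp3* was higher in the edge than in neural tissue, by 4.24 and 2.96 on the log2 scale (edgeR adjusted p = 0.19).

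The gelatinases, which cut denatured collagen and basement membrane collagen, were both far higher in tumor and edge of section 1 than of section 2. *Mmp9* stood at 318 and 28.5 CPM in the tumor, 301 and 48.3 in the edge and 11.5 and 9.0 in neural tissue. It rose against neural tissue in the tumor (log2 fold change 3.17, SE 0.78, edgeR adjusted p = 0.027) and in the edge (3.37, SE 0.78, edgeR adjusted p = 0.031). *Mmp2* was at 955 and 11.3 CPM in the tumor, 395 and 24.4 in the edge and 16 and 9.64 in neural tissue, and was not called in any comparison. Its difference between tumor and neural tissue was 5.86 on the log2 scale in section 1 and 0.22 in section 2.

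Among the membrane-type MMPs, *Mmp14*, which activates MMP2 and cuts collagen at the cell surface, was the one called higher. It was at 1801 and 576 CPM in the tumor, 1216 and 385 in the edge and 38.1 and 52.3 in neural tissue, and tumor and edge did not overlap with neural tissue. The log2 fold changes against neural tissue were 4.31 in the tumor (SE 0.66, edgeR adjusted p = 0.0056) and 3.74 in the edge (SE 0.65, edgeR adjusted p = 0.014). *Mmp24*, the membrane-type MMP known from neurons, ran the other way, with 59.8 and 109 CPM in neural tissue, 25.2 and 24.9 in the edge and 5.01 and 4.46 in the tumor. It fell by 4.11 in the tumor (SE 0.32, edgeR adjusted p = 0.00091) and was 2.39 higher in the edge than in the tumor (SE 0.30, edgeR adjusted p = 0.031). *Mmp17* fell in the tumor as well, to 6.74 and 4.82 CPM from 29.2 and 51.4 in neural tissue (log2 fold change -2.77, edgeR adjusted p = 0.0033).

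*Mmp15* took opposite directions in the sections. In section 1 it was lowest in the tumor, at 9.96 CPM against 28.8 in the edge and 48.0 in neural tissue, and in section 2 it was highest in the tumor, at 384 CPM against 141 and 32.1. *Mmp15* changed by -2.21 and 3.56 between tumor and neural tissue on the log2 scale, and the fit gave no call (edgeR adjusted p = 0.89). *Mmp25* was at 28.7 and 3.02 CPM in the tumor, 12.6 and 6.82 in the edge and 3.60 and 3.43 in neural tissue, with no call. *Mmp16* reached no more than 17.9 CPM.

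Of the other MMPs, *Mmp19* and *Mmp23* passed 20 CPM in a region, and neither was called. *Mmp19* was highest in the edge of both sections, at 90.1 and 57.2 CPM, with 75.8 and 6.53 in the tumor and 8.40 and 17.5 in neural tissue. *Mmp23* was at 57.1 and 16.1 CPM in the tumor, 31.1 and 20.3 in the edge and 13.5 and 23.0 in neural tissue, so that its order turned between sections. *Mmp7*, *Mmp16*, *Mmp20*, *Mmp21*, *Mmp27* and *Mmp28*, with *Mmp1b*, *Adamts6* and *Adamts19*, were below 20 CPM in all 3 regions and were not called.

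**Figure D3:**
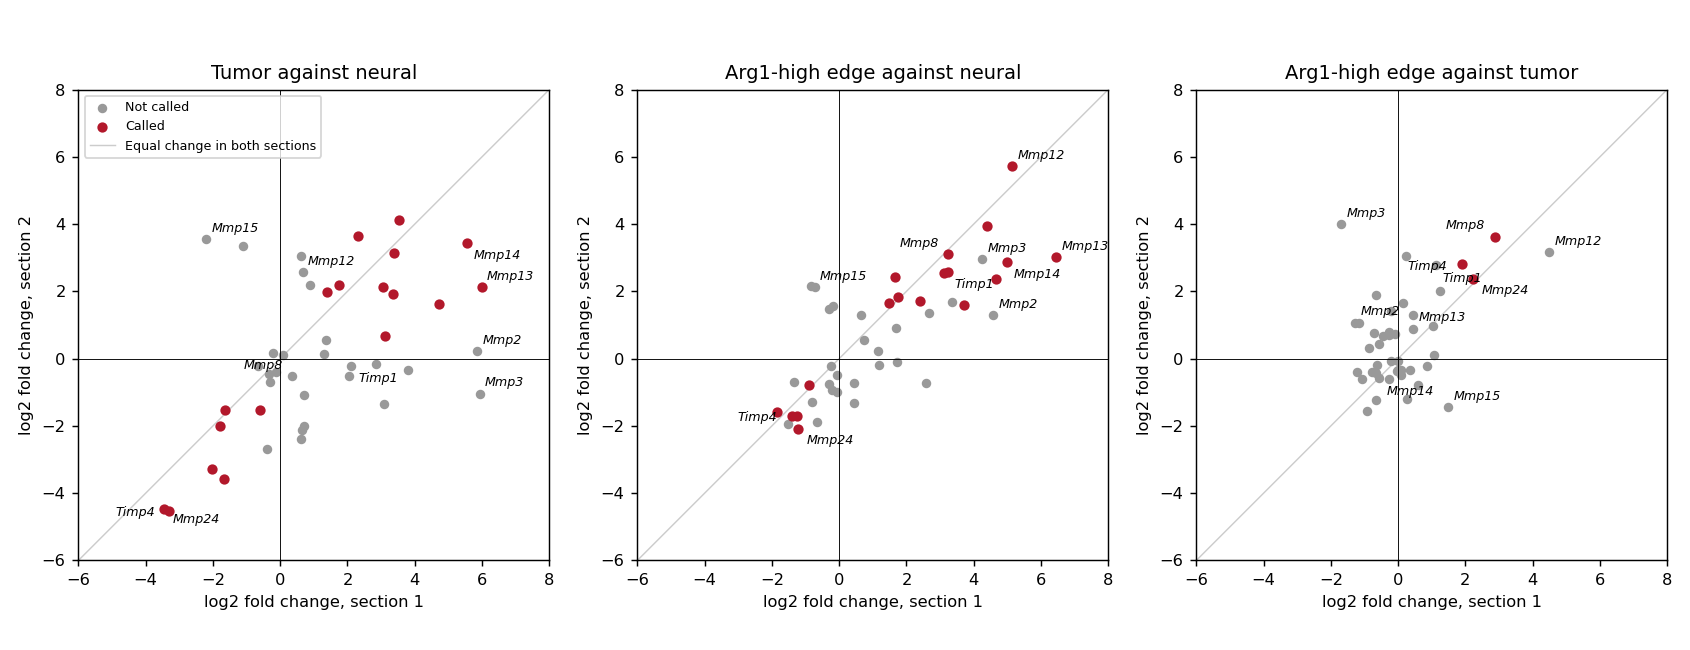
Log2 fold change of each tested MMP, ADAMTS and TIMP gene (44 points a panel) in section 1 (horizontal) against section 2 (vertical) for the 3 comparisons; red points were called at an adjusted p below 0.05 in edgeR, and the diagonal marks equal change. In tumor against neural tissue *Mmp3* and *Mmp15* lie in opposite quadrants, while in edge against neural tissue no gene changed by more than 1 in opposite directions.

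More genes of the family shared their direction between sections in edge against neural tissue than in tumor against neural tissue. Between tumor and neural tissue 30 of the 44 genes had the same direction in both sections, and 4 (*Mmp3*, *Mmp15*, *Mmp19* and *Adamts15*) went more than 1 on the log2 scale in opposite directions. Between edge and neural tissue 35 genes shared their direction, and none went more than 1 in opposite directions. Between edge and tumor 23 shared it, and 4 (*Mmp2*, *Mmp3*, *Mmp15* and *Mmp25*) were opposite by more than 1. The difference between these counts was not tested. The same shares were not counted over all genes, so the counts do not show a trait particular to the family.

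Set directly against each other, the tumors differed more than 4-fold, after 0.5 CPM was added to both levels, in 16 of 44 genes, 12 higher in section 1 and 4 higher in section 2. Without the added 0.5 CPM the low genes *Mmp8* (4.12 times) and *Adamts18* (6.08 times) passed this fold as well. Over all genes with at least 50 UMIs, 9.07% passed this fold (5.0% higher in section 1 and 4.07% lower). With 1 tumor for each value there is no test of this difference, and the following ratios, made with no added value, have intervals for counting error alone. *Mmp3* was 192 times higher in section 1 (95% exact interval 158 to 235), *Mmp2* 84.1 times (74.3 to 95.6) and *Mmp13* 42.7 times (37.2 to 49.2). In neural tissue no member passed 4-fold with 0.5 CPM added, beside 0.271% of all genes (0.0625% higher and 0.208% lower). There *Mmp10*, with 5 and 36 UMIs, had a ratio of 0.198 with nothing added (95% exact interval 0.0608 to 0.507). In the edge 8 of 44 passed 4-fold, 6 higher and 2 lower in section 1 (2.84% of all genes, with 0.964% and 1.88%).

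The ADAMTS proteoglycanases, which cut brevican, versican and aggrecan, had 2 genes higher and 1 lower of 7 between tumor and neural tissue. *Adamts5* was at 48.4 and 218 CPM in the tumor, 30.3 and 93.1 in the edge and 9.31 and 17.1 in neural tissue, with log2 fold changes of 3.03 (SE 0.33, edgeR adjusted p = 0.0019) and 2.04 (SE 0.32, edgeR adjusted p = 0.011). *Adamts1* stood at 47.7 and 137 CPM in the tumor, 50.6 and 107 in the edge and 17.8 and 34.0 in neural tissue and rose by 1.72 and 1.58. Both genes were higher in section 2 in all 3 regions, and tumor against neural tissue on the log2 scale was 2.32 and 3.64 for *Adamts5* and 1.40 and 2.00 for *Adamts1* in sections 1 and 2. *Adamts20* fell in the tumor, to 3 and 1.49 CPM from 11.6 and 7.49 (log2 fold change -2.12, edgeR adjusted p = 0.0079).

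*Adamts15* repeated the pattern of *Mmp15*. It was at 6.15 CPM in the tumor, 7.54 in the edge and 13.9 in neural tissue of section 1, and at 182, 79.1 and 17.3 in section 2, with no call. *Adamts8* was at 12.1 and 33.6 CPM in the tumor, 5.47 and 21.9 in the edge and 6.33 and 7.03 in neural tissue. *Adamts9* was at 69.3 and 42.2 CPM in the tumor, 41.8 and 71.2 in the edge and 26.4 and 28.4 in neural tissue. Neither was called.

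*Adamts4*, the aggrecanase known from oligodendrocytes, was not called either. It was at 42.7 and 19.2 CPM in the tumor, 88.1 and 38.5 in the edge and 26.2 and 41.0 in neural tissue. Section 1 had its highest level at the edge, and section 2 had nearly equal levels in edge and neural tissue.

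The procollagen N-proteinases, which trim fibrillar procollagens, split. *Adamts14* was at 40.1 and 26.2 CPM in the tumor, 33.1 and 17.2 in the edge and 3.38 and 2.52 in neural tissue, with log2 fold changes of 3.47 (SE 0.28, edgeR adjusted p = 0.00094) and 3.02 (SE 0.28, edgeR adjusted p = 0.0048). *Adamts3* fell, from 28.8 and 36 CPM in neural tissue to 8.89 and 12.2 in the tumor and to 7.66 and 11.7 in the edge, by 1.63 and 1.76. The third, *Adamts2*, was at 438 CPM in the tumor of section 1 and 30.6 in that of section 2, where neural tissue held 38.9, and was not called.

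Of the 9 other ADAMTS genes, *Adamts12* and *Adamts7* rose in the tumor and *Adamts17* and *Adamts18* fell. *Adamts12* was at 41.0 and 15.4 CPM in the tumor, 52.0 and 12.1 in the edge and 3.55 and 3.67 in neural tissue, with a log2 fold change of 2.69 (SE 0.52, edgeR adjusted p = 0.012). *Adamts7* was at 27.7 and 4.14 CPM in the tumor, 20.2 and 6.95 in the edge and 2.77 and 2.43 in neural tissue, with a log2 fold change of 2.05 (SE 0.61, edgeR adjusted p = 0.048). *Adamts18* fell from 5.46 and 8.16 CPM in neural tissue to 1.37 and 0.225 in the tumor, where section 2 had 5 UMIs. *Adamts17* was at 5.37 and 1.94 CPM in the tumor, 3.28 and 1.64 in the edge and 8.49 and 6.55 in neural tissue and fell in tumor and edge, by 1.19 and 1.70. The tumor calls of *Adamts7* and *Adamts17* were each lost under 5 of 12 alternatives, and that of *Adamts18* without the intermediate region.

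*Adamts13*, the protease that cuts von Willebrand factor, was low throughout and was called lower in the edge, at 1.09 and 0.884 CPM against 2.47 and 1.88 in neural tissue (edgeR adjusted p = 0.043). This call was lost under 6 of 12 alternatives, DESeq2 among them. *Adamts10* was at 63.9 and 17.9 CPM in the tumor, 54.6 and 48.3 in the edge and 40.3 and 80.1 in neural tissue, with no call. *Adamts16* was at 23.7 and 2.39 CPM in the tumor, 19.6 and 4.17 in the edge and 14.3 and 11.1 in neural tissue, again with no call.

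For each of the 4 inhibitors the highest region was the same in both sections. *Timp1*, the inducible inhibitor, was highest in the edge, at 457 and 254 CPM, with 211 and 36.8 in the tumor and 48.6 and 42.4 in neural tissue. Its log2 fold change in edge against neural tissue was 2.88 (SE 0.67, edgeR adjusted p = 0.032), while tumor against neural tissue gave no call (1.16, SE 0.66, edgeR adjusted p = 0.21), with 2.11 and -0.20 within the sections. *Timp2* was highest in the tumor, at 2132 and 1064 CPM, with 1339 and 791 in the edge and 255 and 241 in neural tissue. *Timp2* rose by 2.58 in the tumor (SE 0.31, edgeR adjusted p = 0.0023) and by 2.02 in the edge (SE 0.30, edgeR adjusted p = 0.0091).

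*Timp3*, the inhibitor that binds to matrix, was also highest in the tumor, at 243 CPM in section 1 and 1222 in section 2, with 127 and 412 in the edge and 157 and 147 in neural tissue. It was not called (tumor against neural tissue 1.73, SE 0.59, edgeR adjusted p = 0.069). *Timp4*, a TIMP of brain and heart, was highest in neural tissue, at 202 and 239 CPM, with 75.5 and 73.1 in the edge and 20.0 and 9.99 in the tumor. *Timp4* fell by 3.89 in the tumor (SE 0.39, edgeR adjusted p = 0.0015) and was 2.32 higher in the edge than in the tumor (SE 0.37, edgeR adjusted p = 0.044). Tumor spots were picked for low RNA of the neuron, oligodendrocyte and astrocyte lists, while edge spots were not. Median neural scores were 0.30 and 0.26 in the edge and 0.03 and 0.04 in the tumor. In these lists, where *Gja1* of the astrocyte list was not used, 8 of 9 oligodendrocyte, 6 of 16 neuron and 4 of 8 astrocyte genes were higher in the edge than in the tumor. These counts follow from the rule and are no separate result. Differences between edge and tumor in other genes that go with neural RNA are in part set by the rule too. The part of neural RNA in the edge levels of *Timp4* and *Mmp24* was not tested. The number of probes for each gene is not given in the sources used here, so a higher level of one gene than of another does not show more transcripts.

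Over the family, 24 of 44 genes had their highest region in common between sections, which is 54.5%, beside 62.4% of all genes with at least 50 UMIs. The edge was the shared highest region of 6 genes (13.6%, beside 6.81% of all genes): *Mmp8*, *Mmp12*, *Mmp13*, *Mmp19*, *Mmp27* and *Timp1*. The tumor was it for 6 genes (13.6%, beside 21.7%): *Mmp14*, *Adamts5*, *Adamts8*, *Adamts14*, *Timp2* and *Timp3*. Neural tissue was it for 12 genes (27.3%, beside 33.9%). Whether these shares differ from those of all genes was not tested. The place of *Mmp27* rests on 24 and 8 edge UMIs in sections 1 and 2. In section 2 its edge was only 0.11 above the tumor on the log2 scale.

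Protease and inhibitor were then set against each other within each region. The UMIs of all 22 *Mmp* genes over those of all 4 *Timp* genes came to 1.78 in the tumor, 1.75 in the edge and 0.448 in neural tissue of section 1, and to 0.502, 0.866 and 0.537 in section 2. The ratio depends on probe number and counts transcripts, not active protein. Section 1 had near-equal ratios in tumor and edge, and section 2 had its highest ratio in the edge. In both sections the edge was above neural tissue, with a log2 difference of 1.33 ± 0.90 (SD, n = 2). The edge was picked by *Arg1*, and genes that go with *Arg1*, such as *Mmp12*, count in its ratio. This difference is thus in part set by the rule. Tumor against neural tissue gave 0.95 ± 1.47, with 1.99 in section 1 and -0.10 in section 2, and edge against tumor 0.38 ± 0.57.

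**Figure D4:**
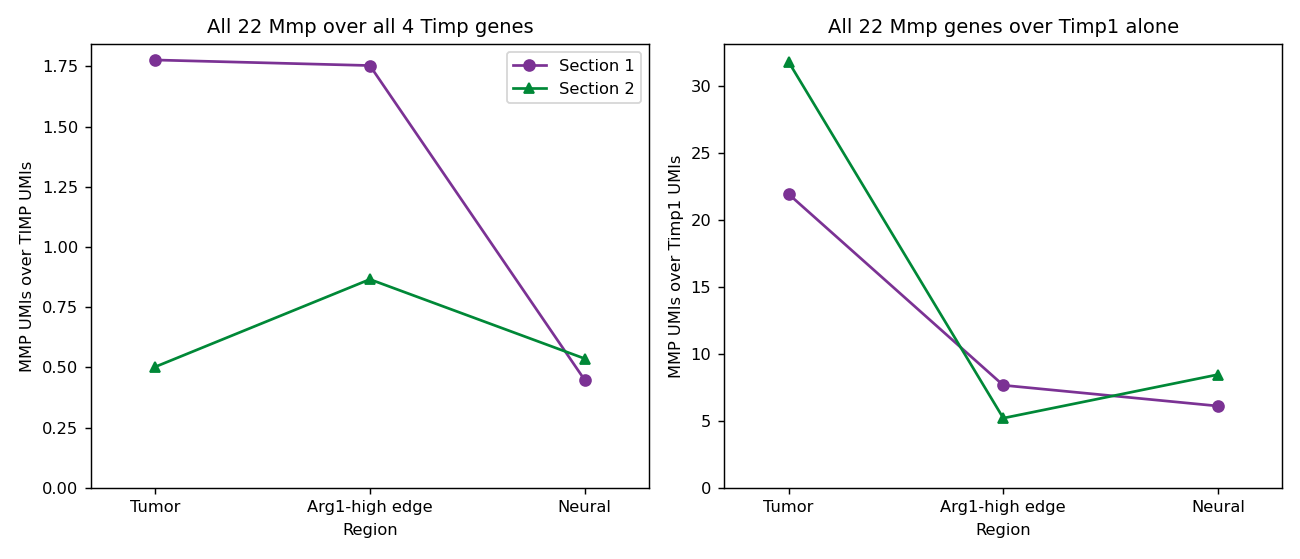
Ratio of MMP UMIs to TIMP UMIs (left) and to *Timp1* UMIs (right) in tumor, Arg1-high edge and neural regions, with 1 point for each section and region and lines joining points of a section. With all inhibitors the ratio was 1.78 and 0.502 in the tumors, and with *Timp1* alone it was lower in the edge than in the tumor of both sections.

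The genes behind the ratio changed with the region, and their shares depend on the probes of each gene. *Mmp12* made 13.6% and 30.9% of the MMP UMIs in the edge of sections 1 and 2, but 0.448% and 3.87% in the tumor and 4.33% and 2.00% in neural tissue. *Mmp14* made 38.9% and 49.2% of them in the tumor, where *Mmp2* added 20.6% in section 1 and *Mmp15* 32.8% in section 2. In neural tissue *Mmp24* made 20.2% and 30.2%. On the inhibitor side *Timp1* was 22.9% and 16.6% of the TIMP UMIs in the edge and 8.09% and 1.58% in the tumor.

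*Timp4* made 30.5% and 35.8% of the TIMP UMIs in neural tissue, and *Timp3* made 52.4% of them in the tumor of section 2 against 9.32% in that of section 1. Set against *Timp1* alone, the MMP ratio was 22 and 31.8 in the tumor, 7.66 and 5.21 in the edge and 6.11 and 8.46 in neural tissue. With *Timp1* alone the edge was below the tumor in both sections, which turned the order of section 2, while in section 1 the edge was already slightly below the tumor with all inhibitors.

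The same genes were followed by distance from the border of the tumor mass, which does not use *Arg1*. Distances are in spot steps, negative inside the mass, and levels are unscaled CPM, the UMIs of the gene per 1000000 UMIs of all spots at that distance. *Mmp12* peaked just outside the border, at 570.2 CPM 2 steps outside in section 1 and 262 at 1 step outside in section 2, and was 6.42 and 30.0 at 8 or more steps inside. *Mmp8* peaked at 1 and 2 steps outside, with 32.0 and 12.8. *Timp1* had its peak at the same distances as *Mmp12*, at 537 and 235 CPM.

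*Mmp13* and *Mmp14* peaked inside the mass of section 1, both at 3 steps, with 834 and 2350.2 CPM. In section 2 *Mmp13* peaked 1 step outside at 20.9, and *Mmp14* was highest at the deepest spots with 527. *Mmp3* was highest at the deepest spots of section 1, with 1014 CPM, and 1 step outside in section 2, with 83.5. *Mmp15* was highest at the deepest spots of section 2, with 347, and peaked 6 steps outside in section 1, with 106.

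*Timp4* peaked 7 steps outside the border in both sections, at 404 and 349 CPM, above its 209 and 232 at 10 or more steps. The peak is the highest of all distances and rests on 64 and 78 spots, so it does not stand for all neural tissue near the tumor. *Mmp24* peaked 9 steps outside in both sections, at 178 and 158 CPM, with 64.3 and 113 at 10 or more steps. *Timp3*, highest in the tumor by region, peaked 7 steps outside in section 1, at 307 CPM, with 269 at the deepest spots. In section 2 it was highest at the deepest spots, with 1347. *Adamts4* peaked 3 steps inside in section 1 and 6 steps outside in section 2, at 114 and 74.5.

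**Figure D5:**
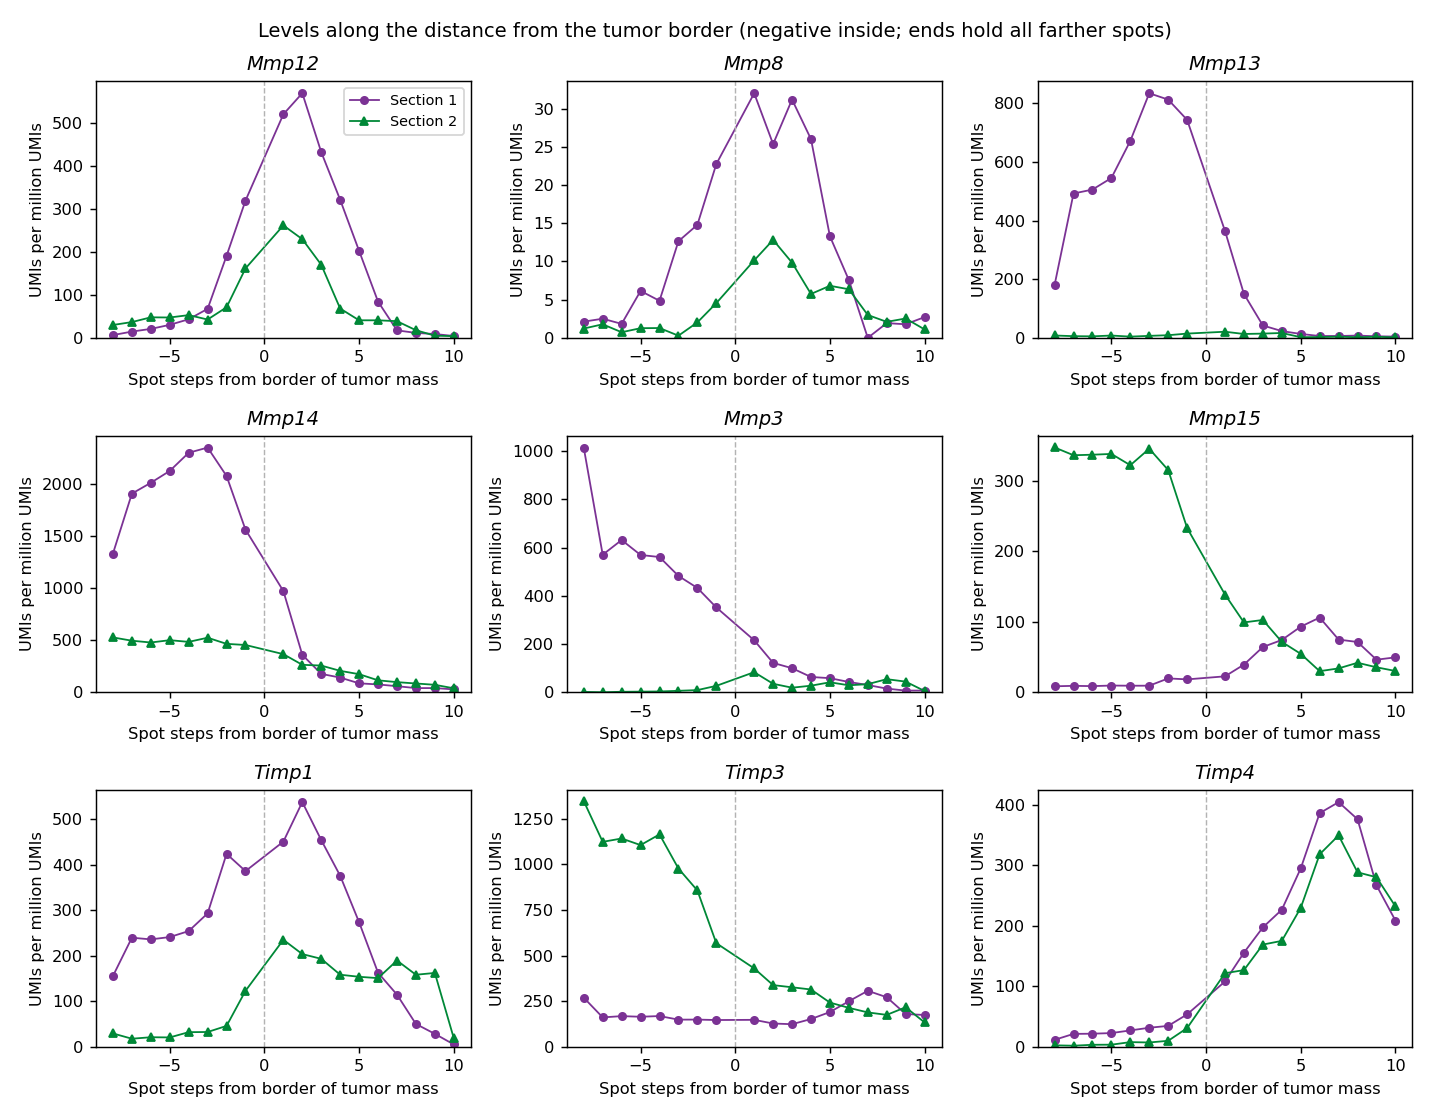
UMIs of 9 genes per 1000000 UMIs (vertical) by distance in spot steps from the border of the tumor mass (horizontal, negative inside, dashed line at the border) in sections 1 and 2; the first and last points hold all spots at 8 or more steps inside and 10 or more outside. *Mmp12*, *Mmp8* and *Timp1* peak 1 or 2 steps outside the border in both sections, and *Timp4* peaks 7 steps outside.

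Within the edge, single spots were described by Spearman correlation of levels, with 305 and 351 spots that share a library and depth, so no p is given. *Mmp12* followed the summed macrophage markers, with rho of 0.64 and 0.59 in sections 1 and 2, and *Arg1*, with 0.57 and 0.43. Most of the macrophage sum was *Spp1*, so this rho mainly describes that gene. Among tumor spots, where 40.3% and 64.6% had a UMI of *Mmp12*, its rho with the macrophage markers was 0.0452 and 0.0163 and with *Arg1* 0.52 and 0.22. Again within the edge, *Mmp14* followed the fibroblast markers in section 1 (0.90) and the epithelial markers in section 2 (0.57). *Mmp13* followed the fibroblast markers in section 1 (0.77), where 74.1% of edge spots had a UMI of it, against 21.9% in section 2. *Mmp14* also rose with the total UMIs of the spot, with 0.75 and 0.43, whereas *Mmp12* had -0.47 and 0.07. For *Mmp13* this rho was 0.61 in section 1. *Timp1* followed neither list closely, with -0.23 and 0.16 for macrophages and 0.13 and 0.02 for fibroblasts. Among tumor spots of section 1 the rho with the fibroblast markers was lower, 0.36 for *Mmp14* and 0.17 for *Mmp13*. There *Mmp14* had 0.46 with *Arg1*. Edge spots mix tumor and neural tissue, and the part of this mixture in the correlations was not tested.

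Other genes of the protease system were counted by list. Of 26 activators and inhibitors 9 were higher and 1 lower in the tumor than in neural tissue. The largest changes among them were in *Thbs1*, thrombospondin 1 (log2 fold change 4.48, SE 0.96, edgeR adjusted p = 0.016, with 2.79 and 5.73 within the sections), and *Plau*, urokinase, which makes the plasmin that activates MMPs (3.67, SE 0.22, edgeR adjusted p = 0.00073). *Plau* was at 115 and 156 CPM in the tumor, 187 in the edge of each section and 8.32 and 13 in neural tissue. In the edge 9 of the 26 were higher than in neural tissue and none lower, and none was called between edge and tumor.

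Of 13 ADAM proteases 5 were higher and 3 lower in the tumor, and the largest changes were falls of *Adam23* (-4.80) and *Adam22* (-4.04), surface proteins of neurons without protease activity. Of 6 ADAMTS-like proteins 1 was called, *Adamtsl5* (-1.31). Among substrates, 14 of 19 collagen, elastin and basement membrane genes were higher in the tumor and none lower, led by *Col6a1* (4.68, with 5.97 and 3.61 within the sections) and *Col3a1* (4.66, with 6.68 and 2.63). *Col3a1* is also on the fibroblast list. Of 13 lectican and hyaluronan matrix genes 3 were higher and 6 lower, led by *Bcan*, brevican (-5.59), and *Hapln2* (-5.38).

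Of 14 transcription factors of the AP-1, ETS and RUNX families 10 were higher in the tumor and none lower, led by *Runx2* (3.43) and *Runx1* (3.18), and 9 were higher in the edge. Of 14 cytokines 9 were higher in the tumor, led by *Tgfb3* (2.68) and *Tgfb1* (2.43), and 8 in the edge. Between edge and tumor 3 lectican and hyaluronan genes, 1 ADAM and 1 cytokine were higher. For all these lists the background is 17.9% of genes higher and 18.3% lower in the tumor, and 11.8% and 11.7% in the edge. Between edge and tumor it is 2.46% higher and 0.0418% lower.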

How the data were processed

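The authors deposited UMI counts for each gene in each tissue-covered spot, made with Space Ranger 2.1.1 on build mm10 and not normalized, per the labels and processing notes. The probe panel version is not given in the sources used here. Spots with under 500 UMIs or 10 genes were left out.

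A neural score was the highest of 3 lists (neurons, oligodendrocytes, astrocytes), each divided by its 75th percentile in the section. Tumor spots scored under 0.2 in a connected group of at least 50, neural spots over 0.5, and edge spots were in the top 10% for *Arg1* within 5 steps of low-scoring and neural spots. Edge spots were taken out of the tumor, intermediate and neural regions. The remaining spots between 0.2 and 0.5 formed an intermediate region. Its makeup differed between sections: choroid plexus markers summed to 612 CPM in section 1 and to 15260 in section 2, where *Ttr* alone made 14728. As first written, the rule left no tumor spot in section 2, where *Gja1* of the astrocyte list was at 3271 CPM in the tumor. *Gja1* was therefore dropped from the score after seeing the data. The authors' own clusters were not used here.

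Counts of all spots of a region were added up, giving 8 libraries (4 regions in each of 2 sections) with totals between 3016412 and 33162519 and TMM factors from 0.859 to 1.17. All regions of a section come from 1 animal, which pairs them, so section entered the fit as a block and left 3 residual degrees of freedom. Leaving this block out raised the common dispersion from 0.0839 to 0.185. Tests were run in edgeR 4.0.16 (filterByExpr, glmQLFit, glmQLFTest; R 4.3.3) over 19143 genes. They were also run on simulated counts with a lower dispersion than the data and a section shift shared by all regions. That simulation cannot show how the tests fare where region differences vary between sections, as they do here. Standard errors are the log2 fold change over the root of F. Folds within a section used CPM + 0.5. The p-values measure how far the differences between regions disagree between these 2 sections, pooled over the 4 regions and with information shared across genes. They do not measure the overall difference between the sections, which the block takes out. Counting intervals are exact 95% intervals and cover counting error alone. The number of sections limits precision. The sections share 3096 spot barcodes, which name positions of the array.

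Genes called in any comparison or reaching 20 CPM in a region were named with values. Of other lists, the 2 called genes with the largest change in the tumor were named. The genes and lists were chosen with earlier results of these data known. Alternatives were DESeq2 1.42.0, other size factors, no filter, no block, and other region rules. All 45 genes matched a RefSeq gene and 31 a promoter (GRCm38.p6, the build called mm10).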

Additional observations from a re-analysis of the deposited data

How the results depend on the processing

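In tumor against neural tissue the number of called members was 18 and ranged from 12 without the replicate block to 25 with DESeq2, with 13 without the intermediate region; 11 members were called under all 12 alternatives. In edge against neural tissue it was 18, with 10 without the replicate block and 11 without the intermediate region, and 9 members were called under all 12. In edge against tumor it was 3, with 5 for DESeq2 and 0 without the intermediate region. The shares of all genes called under the alternatives are not given here, so these counts do not show a trait of the family. No called member reversed its direction in the fits. The log2 protease to inhibitor difference moved beyond its SD with *Timp1* as the only inhibitor, to -0.19 for edge against neural tissue and -2.07 for edge against tumor. By section it ranged from -0.10 to 1.99 for tumor against neural tissue, from 0.69 to 1.97 for edge against neural tissue and from -0.02 to 0.79 for edge against tumor. With single sections, 65 and 68 of 108 member results moved by at least 1 SE or changed sign. Scaling by library size alone moved the median of all genes in tumor against neural tissue from -0.13 to -0.43, and *Timp1* there from 1.16 to 0.84. The causes were not tested. The neural score without the astrocyte list, chosen after seeing the data, gave 18, 20 and 3 called members. The number of sections, 2, limits all tests.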
